A study of Mus musculus with 10 samples.

Results

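The complement genes examined here are 7 genes with measured transcripts in mouse bone marrow-derived macrophages, of the 57010 genes of the deposited table. They were chosen by symbol as components or receptors of the complement system: C1qa, C1qb, C1qc, C3, Cfp, C3ar1 and C5ar1. The rule itself uses no measured value, but the genes were listed with earlier results of these data known. All 7 had at least 388 reads in every library, so that all were among the 12455 genes tested. Primary macrophages were grown from marrow for 7 days with macrophage colony-stimulating factor at 20 ng/mL, from wild-type mice (WT) or from mice without WASp (WKO). WASp, encoded by Was, starts branched actin assembly in blood cells. Polyadenylated RNA was sequenced from 10 libraries. There were 2 libraries of unconfined WT cells (replicates 1 and 3) and 2 of unconfined WKO cells (replicates 1 and 3). Another 3 libraries came from WT cells (replicates 2, 3 and 6) and 3 from WKO cells (replicates 1, 2 and 5) held for 1 h between surfaces 3 µm apart. The labels give neither the sex nor the age of the mice, do not say whether the libraries of a group came from separate mice or cultures, and do not say how unconfined cells were handled. The p-values therefore measure the spread between these libraries, which may be technical.

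Complement is a set of proteins that tag particles for uptake and attract leukocytes. C1q, built from the chains of C1qa, C1qb and C1qc, recognises immune complexes and dying cells and opens the classical pathway; macrophages are its main source in the body. All routes meet at C3, whose large fragment coats targets; properdin, the product of Cfp, holds the C3-cleaving enzyme of the alternative pathway together. C3ar1 and C5ar1 are G protein-coupled receptors for the small fragments released from C3 and from the fifth component.

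Values are normalized read counts, that is, reads divided by 1 scaling factor per library. Libraries held between 13295701 and 19329908 reads, and 3 reads, taken as the floor of detection, corresponded to a normalized read count between 2.35 and 3.59. The targeted gene was measured first. Was lay between 1308 and 1649 in the 5 WT libraries and between 96.9 and 154 in the 5 WKO libraries. The genotypes did not overlap, and Was was lower in WKO cells by both limma comparisons (log2 fold change -3.30 unconfined, adjusted p = 4.38e-06, and -3.91 confined, adjusted p = 5.99e-08). The labelled cell type was checked on 10 macrophage markers, all of which were detected, with summed normalized read counts between 183200 and 318553 per library.

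C1q and C3 transcripts were more abundant in WKO than in WT macrophages, whereas Cfp and the receptors C3ar1 and C5ar1 did not pass the test in any comparison. Averaged over both conditions, C3 was 2.40-fold, C1qa 2.17-fold, C1qc 1.49-fold and C1qb 1.43-fold higher in WKO cells. These folds and all log2 fold changes below come from a limma fit to log2(normalized read count + 1) over the 10 libraries. The threshold was a Benjamini-Hochberg adjusted p of 0.05 over the 12455 genes. For 1 h of confinement, 0 of the 7 genes passed in either genotype. In the plot of normalized read counts by library, the C1q genes and C3 lie higher in WKO libraries in both conditions, although the unconfined comparison alone missed the threshold.

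**Figure D1:**
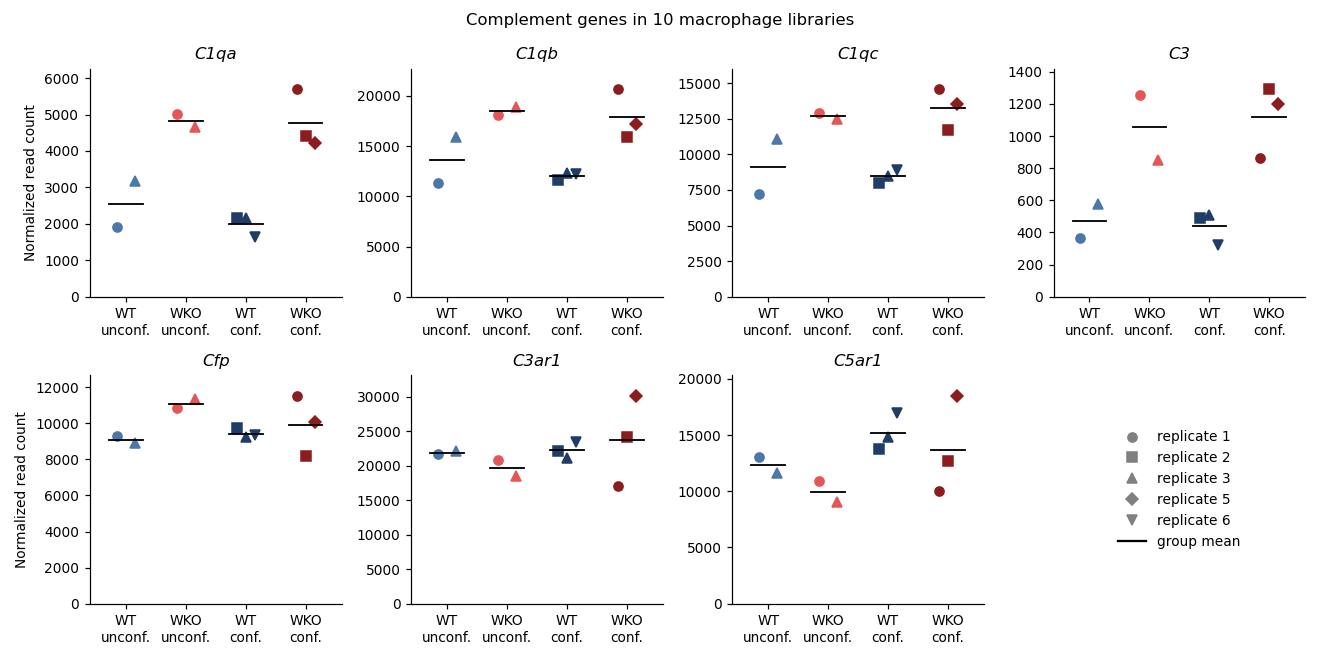
Normalized read counts (linear axis from 0) of the 7 complement genes in the 10 libraries; each symbol is 1 library, shaped by its replicate number, and the line is the group mean. C1qa, C1qc and C3 are higher in all 5 WKO libraries than in any WT library, C1qb falls short of this by 1 WKO library, and Cfp, C3ar1 and C5ar1 overlap between the genotypes.

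In confined cells 4 of the 7 genes passed, all higher in WKO, where 2.59% of all tested genes passed and 1.38% passed on the higher side. Their groups did not overlap, which held on the higher side for 10.7% of all genes. In unconfined cells limma called 0 of 7, against 0.145% of all genes. There, 4 of 7 had an unadjusted p under 0.05, as had 9.6% of all genes. On the recovered reads edgeR called 0 of 7 (0.12% of all genes), and DESeq2 called 2, C1qa and C3 (1.44% of all genes). In that comparison of 2 libraries against 2, all 7 genes had groups without overlap, 5 higher and 2 lower in WKO, as had 44.9% of all genes. Over both conditions 4 of 7 passed, all higher, where 5.57% of all genes passed and 2.9% passed on the higher side. For C1qa, C1qc and C3 all 5 WKO libraries were above all 5 WT libraries, as for 3.38% of all genes. The median log2 genotype difference of the 7 genes was 0.47 unconfined and 0.57 confined, beside 0.0022 and 0.0036 over all tested genes. The counts depend on single libraries, and so do those over all genes. In confined cells 0.466% of all genes passed without WT confined replicate 2, 0.642% without replicate 3 and 1.13% without replicate 6. Without WKO confined replicate 1 it was 5.63%. Of the 7 genes, 1 passed in confined cells without WT confined replicate 2 or 6. There 2 passed without WT confined replicate 3, WKO confined replicate 1, or either unconfined WKO replicate. On average over conditions 2 passed without either unconfined WKO replicate. In unconfined cells C1qa passed without WKO confined replicate 5, where 1.13% of all genes passed. That library enters the comparison through the shared estimate of spread.

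**Figure D2:**
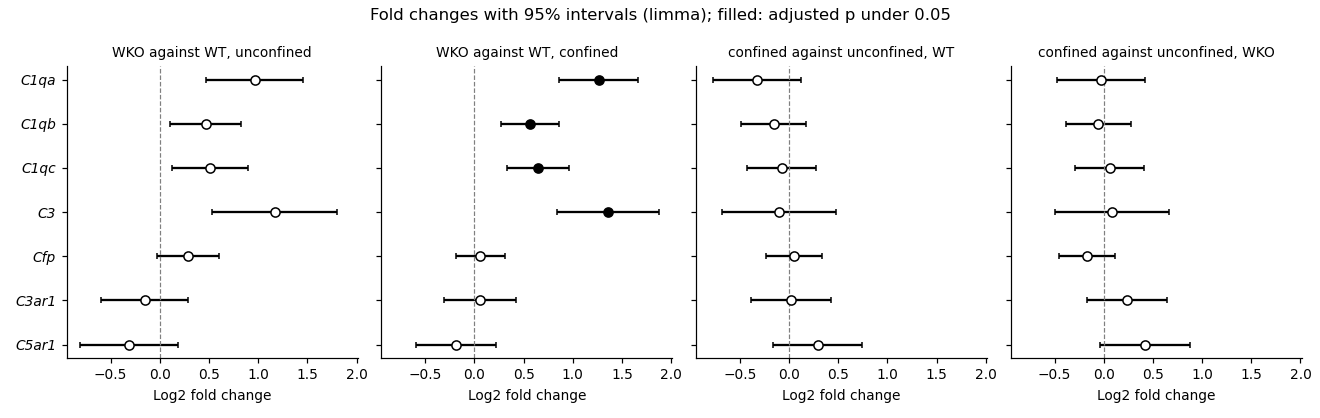
Log2 fold changes of the 7 genes in 4 comparisons (limma), with 95% intervals; filled circles have an adjusted p under 0.05. The 4 filled circles are C1qa, C1qb, C1qc and C3 in the comparison of confined WKO with confined WT cells.

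The C1q genes lie side by side on the minus strand of chromosome 4 (GRCm38), in the order C1qb (136880129 to 136886187), C1qc (136889804 to 136893065) and C1qa (136895917 to 136898803). Each has 3 exons in its longest transcript, and the span of 18675 bases from the first to the last holds no other annotated gene. The 250 bases before the RefSeq start of C1qb are printed because the C1q genes differed together between the genotypes. The windows of the 6 members with a RefSeq entry, C1qa not among them, were searched on both strands for 6 motifs. These were the core of the macrophage factor PU.1 (GAGGAA), the half-site of the MAF family (TGCTGA), C/EBP (TTNNGNAA), AP-1 (TGANTCA), and, by name, IRF and NF-kB. Capitals mark the matches found in chr4:136886201-136886450, shown 5′ to 3′ along the minus strand (RefSeq, GRCm38.p6).
C1qb promoter: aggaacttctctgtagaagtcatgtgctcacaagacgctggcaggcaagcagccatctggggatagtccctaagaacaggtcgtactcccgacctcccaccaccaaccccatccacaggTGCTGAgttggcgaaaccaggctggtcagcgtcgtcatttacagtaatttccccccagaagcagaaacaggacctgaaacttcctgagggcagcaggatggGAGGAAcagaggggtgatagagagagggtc
The PU.1 letters begin at -30 and the MAF half-site at -131, and no other of the 6 motifs was found in this window. The C1qc window differs: it holds the PU.1 letters at -193 on the other strand, C/EBP letters at -81 and NF-kB letters at -41, and no MAF half-site. This window (136892915 to 136893164) overlaps the annotated C1qc gene, which reaches to 136893065. Its C/EBP and NF-kB letters lie within that gene. Of 32851 mouse promoter windows of this length, 23.3% hold the PU.1 letters, 16.1% the MAF half-site, 6.75% AP-1, 2.98% IRF and 7.25% NF-kB, and a match is a description of letters, not a binding site.

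C1qa encodes the A chain of C1q. Its normalized read counts were 1927 and 3171 in unconfined WT cells (replicates 1 and 3) and 5006 and 4662 in unconfined WKO cells (replicates 1 and 3). In confined cells they were 2169, 2161 and 1629 in WT (replicates 2, 3 and 6) and 5693, 4402 and 4228 in WKO (replicates 1, 2 and 5). All WKO libraries were above all WT libraries. Group means were 2549 ± 879 (SD, n = 2) against 4834 ± 243 (n = 2) without confinement and 1986 ± 309 (n = 3) against 4774 ± 800 (n = 3) with it. In confined cells the WKO level was 2.40-fold higher (log2 fold change 1.26, SE 0.184, limma adjusted p = 0.00705); this call was lost only without the mean-variance trend (adjusted p = 0.0553). In unconfined cells the log2 fold change was 0.97 (SE 0.226, 95% interval 0.47 to 1.46), and its limma adjusted p of 0.127 missed the threshold. The averaged genotype difference was 1.12 (SE 0.146, limma adjusted p = 0.00153) and remained past the threshold under all 21 alternative settings.

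C1qb encodes the B chain. Unconfined WT libraries had 11286 and 15942 normalized reads (replicates 1 and 3) and unconfined WKO libraries 18139 and 18905 (replicates 1 and 3). Confined WT libraries had 11600, 12358 and 12176 (replicates 2, 3 and 6) and confined WKO libraries 20649, 15938 and 17187 (replicates 1, 2 and 5). Within each condition every WKO library was above every WT library; across conditions, WKO confined replicate 2 lay just under WT unconfined replicate 3. The difference between confined genotypes was 1.48-fold (log2 fold change 0.57, SE 0.135) with a limma adjusted p of 0.0495. That call was lost under 14 of 22 alternative settings, with adjusted p between 0.00325 and 0.17. The averaged difference of 0.52 (SE 0.106, limma adjusted p = 0.0175) was lost under 4 of 21, namely without the mean-variance trend and without WT unconfined replicate 1 or either unconfined WKO replicate.

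C1qc encodes the C chain. Its values were 7196 and 11069 in unconfined WT cells (replicates 1 and 3) and 12908 and 12464 in unconfined WKO cells (replicates 1 and 3). Confined WT libraries had 8022, 8517 and 8917 (replicates 2, 3 and 6) and confined WKO libraries 14572, 11737 and 13535 (replicates 1, 2 and 5). As for C1qa, no WT library reached the level of any WKO library. The confined difference was 1.56-fold (log2 fold change 0.64, SE 0.144, limma adjusted p = 0.0398). This call was lost under 9 of 22 alternatives, with adjusted p between 0.0015 and 0.152. The averaged difference was 0.57 (SE 0.114, limma adjusted p = 0.0146) and was lost without the trend and without either unconfined WKO replicate.

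Within the C1q group, all 3 genes passed the test in confined cells and in the average over conditions, and none passed in unconfined cells. C1qa differed more between the genotypes than its neighbours did. C1qa reads amounted to 17.3% ± 2.46 (SD, n = 5) of C1qb reads in WT libraries, with a range of 13.4% to 19.9%. In WKO libraries they amounted to 26.4% ± 1.62 (n = 5), with a range of 24.6% to 27.6%. The ranges do not overlap. The same ratio to C1qc was 25.2% ± 4.06 in WT and 36.8% ± 3.19 in WKO libraries, and these ranges (18.3% to 28.6% and 31.2% to 39.1%) do not overlap either. C1qc reads were 68.9% ± 3.38 of C1qb reads in WT and 72.0% ± 4.69 in WKO libraries, with overlapping ranges. Gene length cancels here, since each ratio is compared only with itself in other libraries.

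The ratios were tested by exchanging genotype labels within each condition, an exact two-sided permutation test over 120 arrangements that was chosen after the values had been seen. The C1qa to C1qb ratio was higher in WKO by 0.60 on the log2 scale (exact p = 0.0167, the smallest this design allows; 0.025 after Benjamini-Hochberg adjustment over 3 ratios). The C1qa to C1qc ratio was higher by 0.54 (exact p = 0.0167, adjusted 0.025). The C1qc to C1qb ratio differed by 0.06 (exact permutation p = 0.217). In the plot of C1q ratios, WT confined replicate 6 had the lowest share of C1qa; leaving out each library in turn gave differences of 0.53 to 0.65 for C1qa to C1qb and 0.45 to 0.60 for C1qa to C1qc.

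**Figure D3:**
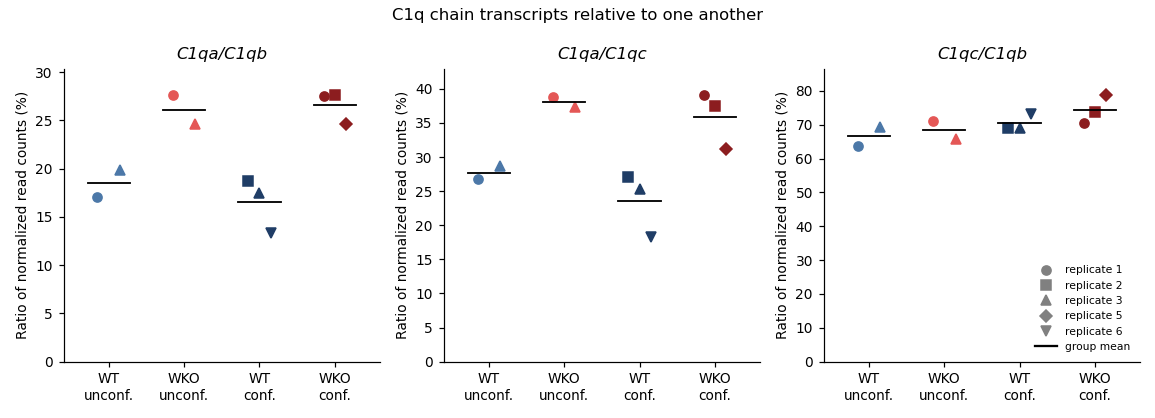
Ratios of normalized read counts between the C1q genes, in percent on linear axes from 0; each symbol is 1 library and the line is the group mean. Both ratios with C1qa in the numerator separate the WKO from the WT libraries, and the C1qc to C1qb ratio does not.

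C3 encodes the central component; the liver makes most of the C3 in plasma, and macrophages and fibroblasts make it too. It lies on the minus strand of chromosome 17, from 57203970 to 57228136, and its longest transcript has 41 exons. Its start is shown because the letters TTNNGNAA, bound by factors of the C/EBP family, occur at 3 positions in the 250 bases before it, at -70, -58 and -45. Capitals mark these and, at -182 on the other strand, a MAF half-site, in chr17:57228137-57228386 along the minus strand (RefSeq, GRCm38.p6).
C3 promoter: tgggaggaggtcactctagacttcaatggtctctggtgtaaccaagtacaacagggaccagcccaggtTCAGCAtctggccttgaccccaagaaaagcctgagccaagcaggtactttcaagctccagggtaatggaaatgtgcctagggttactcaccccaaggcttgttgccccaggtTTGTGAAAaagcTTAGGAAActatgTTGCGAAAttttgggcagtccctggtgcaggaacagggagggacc
The C/EBP letters occur at least once in 36.8% and at 3 or more positions in 2.61% of the 32851 windows.

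C3 was the least abundant of the 7 genes. Unconfined WT libraries had 369 and 576 normalized reads (replicates 1 and 3), and unconfined WKO libraries 1258 and 854 (replicates 1 and 3). Confined WT libraries had 489, 506 and 319 (replicates 2, 3 and 6), and confined WKO libraries 861, 1291 and 1199 (replicates 1, 2 and 5). Every WKO library was above every WT library, although the WKO libraries differed among themselves within both conditions. Group means were 472 ± 147 (SD, n = 2) and 1056 ± 286 (n = 2) in unconfined WT and WKO cells, and 438 ± 103 (n = 3) and 1117 ± 227 (n = 3) in confined cells. The confined difference was 2.56-fold (log2 fold change 1.36, SE 0.238, limma adjusted p = 0.0149). It was lost without the mean-variance trend, without WT confined replicate 2 and without WT confined replicate 6, with adjusted p up to 0.0764. In unconfined cells the log2 fold change was 1.17 (SE 0.292, 95% interval 0.53 to 1.80) and the limma adjusted p of 0.16 missed the threshold. The averaged difference of 1.26 (SE 0.188, limma adjusted p = 0.00328) was kept under all 21 alternatives.

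Cfp encodes properdin and lies on the minus strand of chromosome X from 20925454 to 20931555. Its normalized read counts were 9267 and 8916 in unconfined WT cells, 10832 and 11338 in unconfined WKO cells, 9732, 9211 and 9344 in confined WT cells, and 11500, 8207 and 10085 in confined WKO cells. Unconfined genotypes did not overlap, whereas the confined WKO values spanned those of confined WT. The log2 fold changes between genotypes were 0.29 without confinement (limma adjusted p = 0.58) and 0.06 with it (limma adjusted p = 0.85, 95% interval -0.19 to 0.32).

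C3ar1 encodes the receptor for the small fragment of C3 and lies on the minus strand of chromosome 6 from 122847138 to 122856161. It had 21706 and 22113 normalized reads in unconfined WT cells, 20869 and 18592 in unconfined WKO cells, 22217, 21138 and 23458 in confined WT cells, and 17054, 24148 and 30105 in confined WKO cells (replicates 1, 2 and 5). The confined WKO libraries held both the lowest and the highest value of the 10. The genotype difference was -0.15 in unconfined cells (limma adjusted p = 0.888) and 0.06 in confined cells (limma adjusted p = 0.91, 95% interval -0.31 to 0.42).

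C5ar1 encodes the receptor for the small fragment of the fifth component, a strong attractant of leukocytes, and lies on the minus strand of chromosome 7 from 16246743 to 16259540. It had 13072 and 11641 normalized reads in unconfined WT cells, 10885 and 9045 in unconfined WKO cells, 13757, 14794 and 16944 in confined WT cells, and 9984, 12672 and 18465 in confined WKO cells. All confined WT values lay above both unconfined WT values, as for 18.3% of all genes, and the confined WKO values again spread most, with replicate 5 highest. The genotype difference was -0.31 (limma adjusted p = 0.737) without and -0.19 (limma adjusted p = 0.68, 95% interval -0.59 to 0.22) with confinement. Without WKO confined replicate 5, C5ar1 passed the averaged genotype test on the lower side (limma adjusted p = 0.0373), where 7.84% of all genes passed in either direction.

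Confinement was compared with the unconfined state in each genotype. In WT cells the log2 differences ranged from -0.33 (C1qa, limma adjusted p = 0.573) to 0.29 (C5ar1, limma adjusted p = 0.624), and 0 of 7 passed, against 1.16% of all genes. In WKO cells they ranged from -0.17 (Cfp, limma adjusted p = 0.599) to 0.42 (C5ar1, limma adjusted p = 0.389), and 0 of 7 passed, against 1.72%. In both genotypes 0 of 7 had an unadjusted p under 0.05, as had 12.2% of all genes in WT and 14.1% in WKO cells. Of the 7, edgeR called 0 (0.931% and 1.49% of all genes) and DESeq2 called 0 (2.67% and 3.9%). C5ar1 had the highest confinement difference in each genotype. Averaged over genotypes it was 0.36 (95% interval 0.03 to 0.68, unadjusted p = 0.0325, limma adjusted p = 0.189). There 0 of 7 passed, against 6.21% of all genes, with 1 of 7 under an unadjusted p of 0.05, against 21.6%. Leaving out WKO confined replicate 1 brought C5ar1 past the threshold in this average and C3ar1 past it in WKO cells (limma adjusted p = 0.0442). Without that library 14.5% of all genes passed in the average and 8.37% in WKO cells.

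Whether the confinement difference depended on genotype was tested by the interaction, the difference in WKO minus that in WT. It was 0.30 for C1qa (95% interval -0.34 to 0.93) and 0.19 for C3 (95% interval -0.63 to 1.01). All 7 had a limma adjusted p of 0.999, and 0 had an unadjusted p under 0.05. Neither edgeR nor DESeq2 called any of the 7. Over all tested genes 0% passed by limma, edgeR (0%) or DESeq2 (0%), and 2.07% had an unadjusted p under 0.05. The intervals are wide, and a p that misses the threshold does not show that the genotypes responded alike.

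Levels between genes are compared per kilobase of exon. Averaged over the 10 libraries, C1qb was highest at 14171 normalized reads per kilobase, followed by Cfp (5670), C1qc (5641), C3ar1 (5143), C5ar1 (5107), C1qa (3370) and C3 (150). C1qb was above every other member in all 4 groups without overlap, and C3 was below every other member. The genes between them are not in a fixed order, because the library ranges of neighbours from Cfp to C1qa overlap. C1qc depends on the length used: with its longest transcript in place of the union of exons it reached 9055 per kilobase. The rank of C1qa by level was 6 in both WT groups and in confined WKO cells, and 4 in unconfined WKO cells.

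Likeness was measured as Pearson's r of log2 values over the 10 libraries, which share genotype and confinement, among 10217 genes with a mean of at least 50. For C1qb the gene most like it was C1qc (r = 0.97), followed by Itm2c and the MHC class II loading factor H2-DMa. C1qa was nearest to Trf (transferrin) and Apoe (apolipoprotein E), each with r = 0.97, and C1qc to Itm2c (r = 0.98). C3 was nearest to Plxdc2 (r = 0.97), Gatm and Slc8a1. Among the members, C1qa and C3 had r = 0.91, C3ar1 and C5ar1 had r = 0.83, and C1qa and C5ar1 had r = -0.57. C3ar1 was nearest to Hspa13, and C5ar1 to Myadm and Mtdh. Cfp was less closely followed by any gene, with Casp6 first at r = 0.90.

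Markers of other cells also differed between the genotypes. In bulk RNA, fewer cells of a type and less RNA per cell cannot be told apart. The summed normalized read count of 15 stromal markers, such as collagen genes, was 228 to 811 in confined WT and 993 to 10719 in confined WKO libraries. Of the 13 tested, 8 were called higher in confined WKO cells, where 1.38% of all genes passed on the higher side. Unconfined sums were 1027 to 2001 in WT and 2570 to 3013 in WKO libraries. WKO confined replicate 2 had the highest C3 value, 1291, and the lowest stromal sum of the WKO libraries, 993. Replicate 5, with the highest stromal sum of 10719, had a C3 value of 1199. Replicate 1 had a stromal sum of 3462 and the lowest C3 value of the confined WKO libraries, 861. Without replicate 5 the confined C3 difference was 1.30 (limma adjusted p = 0.0161) and that of C1qa 1.35 (limma adjusted p = 0.00273). Of the members 4 of 7 still passed. The stromal sums of WKO replicates 1 and 2 remained above all confined WT sums, so this does not show the part of stromal cells, which was not tested.

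The summed count of 10 neutrophil and progenitor markers was 8008 to 11510 in unconfined WT, 25626 to 31209 in unconfined WKO, 2943 to 9039 in confined WT and 8018 to 29283 in confined WKO libraries. Of these 10 markers, 0 passed in confined cells, although all 10 log2 differences were above 0. Averaged over both conditions, the comparison in which the C1q and C3 folds are given, 4 of the 10 were called higher in WKO, with a median log2 difference of 1.54. There 2.9% of all genes passed on the higher side. WKO confined replicate 5, with the highest stromal sum, had the lowest neutrophil and progenitor sum of the WKO libraries, 8018. Its C3 and C1qa values were above every WT library. In WKO confined replicate 2, with the lowest stromal sum of the WKO libraries, the neutrophil and progenitor sum was 29283. Sums of 8 measured B lineage markers were 414 to 892 in WT and 1613 to 5202 in WKO libraries. Only 5 of the 8 were tested. In confined cells 3 of the 5 log2 differences were above 0 and 2 below, and 2 were called higher in WKO. The 10 macrophage markers were themselves more abundant, with sums of 183200 to 212294 in WT and 246118 to 318553 in WKO libraries. Of these, Mertk, Csf1r and Lyz2 were called higher in confined WKO cells. All 4 hepatocyte markers, albumin (Alb) among them, were at 0 in every library. Dendritic cell markers summed to at most 162, mast cell and basophil markers to at most 109 and T and NK cell markers to at most 7.06, with Xcr1, Trac and Ncr1 at 0. The part of other cells in the C1q and C3 differences was not tested.

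**Figure D4:**
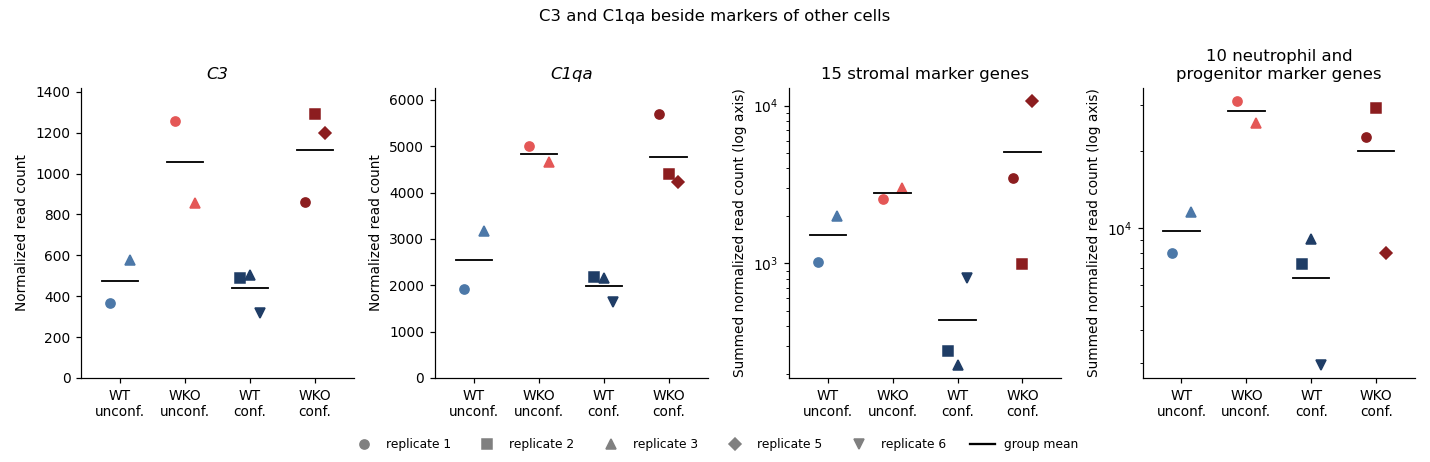
Normalized read counts of C3 and C1qa (linear axes from 0) beside summed normalized read counts of 15 stromal and of 10 neutrophil and progenitor markers (log axes); each symbol is 1 library and the line is the group mean. Of the confined WKO libraries, replicate 2 has the lowest stromal and the highest neutrophil and progenitor sum, and replicate 5 the reverse. All confined WKO libraries, replicate 1 included, lie above all WT libraries for C3 and C1qa.

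The rest of the complement system was read from a list of 52 other genes. Of these, 18 were listed at 0 in every library, 15 had a mean under 10, and 19 were tested. For none of the 18 does the table show whether a 0 means no transcript or comes from the counting. Cfb and Cfd, the alternative pathway genes of this list, were both listed at 0. The exons of Cfb overlap those of the annotated gene Gm20547, and how shared reads were counted is not given in the sources used here. No terminal pathway gene reached the mean of 10, and Hc, which encodes the fifth component, had at most 3 reads in a library. Of the classical and lectin pathway genes 4 of 15 were tested. The 6 highest of the 52 by mean normalized read count were all listed under complement receptors: Lrp1 (50523), Calr (23985), Itgb2 (23667), Cd93 (11714), Itgax (4076) and Itgam (2600). For Calr, which encodes calreticulin, the count does not show how much of the protein is at the surface. Lrp1 and surface calreticulin take part in the uptake of C1q-coated cells. Exons of Itgam overlap the annotated gene Gm49368, which makes its count uncertain.

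Of these 19 genes, limma called 0 in each of the 4 comparisons within a genotype or a condition, and 0 in the interaction. An unadjusted p under 0.05 was found for 3 in the unconfined genotype comparison and for 7 in the confined one, where 16.8% of all genes had such a p. It was found for 1 for confinement in WT, 2 in WKO and 0 in the interaction. In these 5 comparisons edgeR called 0 of 19 (2.56% of all genes for genotype in confined cells). DESeq2 called 1 of 19 unconfined and 3 confined for genotype (6.22% of all genes in the latter), 1 for confinement in WT, and 0 in WKO and in the interaction. Averaged over both conditions 3 of 19 passed for genotype, 2 higher and 1 lower in WKO, where 5.57% of all genes passed. Itgax, which encodes the alpha chain of complement receptor CR4, was lower in WKO by a log2 difference of -0.90 (SE 0.158, limma adjusted p = 0.00773), a call kept under all 21 alternatives. Its group means were 5839 and 2853 in unconfined WT and WKO cells and 4923 and 2869 in confined ones. Its direction was thus opposite to that of C1q and C3. The genotypes overlapped in a single library: WKO confined replicate 1 (3458) lay just above WT confined replicate 6 (3439).

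Csmd1, a membrane regulator, passed on the higher side (limma adjusted p = 0.0314) but at few reads: 12 to 27 per WKO library, and 0, 10, 0, 0 and 3 in the WT libraries. Averaged over genotypes, 1 of the 19 was called for confinement, where 6.21% of all genes passed. This was Cd93, an endothelial and myeloid surface protein once described as a C1q receptor (log2 difference 0.52, SE 0.108, limma adjusted p = 0.015). Its group means were 8390 and 13064 in unconfined and confined WT cells and 10152 and 13623 in the WKO groups. Cd93 did not pass without either unconfined WKO replicate, without WT unconfined replicate 3, with the replicate block or without the mean-variance trend. Csmd1 did not pass without either unconfined WKO replicate, WT unconfined replicate 1, or WT confined replicate 2 or 3.

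Among 14 transcription regulators linked to macrophage or complement gene expression, Rxra, a nuclear receptor partner, was the only one called for genotype. It was higher in confined WKO cells by 0.52 (SE 0.0949, limma adjusted p = 0.017), and on average by 0.43 (limma adjusted p = 0.00697). Over all genes 2.59% passed for genotype in confined cells and 5.57% on average. Irf1, an interferon-responsive factor, was higher in confined cells by 3.10 in WT (limma adjusted p = 0.00173) and 2.43 in WKO cells (limma adjusted p = 0.00416). Cebpb, a C/EBP family member, was higher in confined cells by 1.95 in WT (limma adjusted p = 0.0218) and 1.92 in WKO cells (limma adjusted p = 0.0184). The confined Rxra call was lost without each confined WT replicate, without the trend, with only the compared libraries and with the replicate block. The averaged Rxra call was lost without WKO unconfined replicate 3 (limma adjusted p = 0.0628). The Cebpb call in WT was lost without each confined WT replicate or WT unconfined replicate 1, without the trend and with edgeR. In WKO cells the calls of both Irf1 and Cebpb were lost without WKO unconfined replicate 1 and without the trend, and that of Irf1 also with only the compared libraries. Between confined and unconfined cells C3 differed by -0.10 in WT and 0.09 in WKO cells (limma adjusted p = 0.916 and 0.918). A link between Cebpb and C3, whose window holds the C/EBP letters at 3 positions, was not tested. Averaged over genotypes Irf8, a macrophage lineage factor, was lower in confined cells by a log2 difference of -0.43 (limma adjusted p = 0.0145). This call was lost under 5 of 21 alternatives: no trend, the replicate block, and leaving out WT unconfined replicate 3 or either unconfined WKO replicate (limma adjusted p up to 0.293). Exons of Irf1 and Cebpb overlap those of Gm17334 and Tmem189 on the opposite strand, and the use of strand in counting is not given in the sources used here.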

How the data were processed

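The members and gene lists were chosen with earlier results of these data known. The deposited file is a single table in which each library has 1 normalized read count, a signal, per gene. The submitters' processing notes name FastQC, Trim Galore, STAR and GRCm38 (mm10), without versions; the counting tool and its use of strand are not given in the sources used here. Deposited values divided by the smallest value above 0 of their library gave whole reads for all genes, within a relative tolerance of 1e-06. The deposited signal therefore equals reads divided by 1 factor per library. Genes with a mean of at least 10 were tested as log2(value + 1) with limma 3.58.1 in R 4.3.3, with 1 mean per group, 6 residual degrees of freedom and a mean-variance trend. The script was tested on simulated data. Alternatives were other pseudocounts, filters and scalings, edgeR 4.0.16 and DESeq2 1.42.0 on the recovered reads, array weights, no trend, only the compared libraries, a replicate block, and leaving out each library. Named genes were all members, Was, other complement genes and regulators that passed, the 6 other complement genes with the highest mean, and the 3 genes most like each member. The values of 1 other complement gene that passed are not reported here. Exons came from GENCODE M21. RefSeq promoters matched 6 of the 7 members. Shared sequence was searched with blastn 2.17.0 (at least 95% identity over 100 bases), which found none for the members. No library was left out; replicates differed beyond sampling noise (chi-square per degree of freedom 7.56 to 78.3), so all were counted separately.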

Additional observations from a re-analysis of the deposited data

How the results depend on the processing

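Of 1057 values of the 7 genes under the alternatives, 1010 stayed on their side of the threshold and 34 fell short of it. Another 13 newly passed, and 0 passed in the other direction. Of the 1010, 59 had another sign, and none of these passed either way. For genotype in unconfined cells, the 0 reported calls became 2 with DESeq2, 2 with only the compared libraries, 2 with the replicate block and 1 with array weights, and 0 to 1 without each library. In confined cells the 4 calls became 2 without the filter on low values, 2 with only the compared libraries and 0 without the trend, and 1 to 4 without each library. Averaged genotype calls went from 4 to 2 without the trend, and to between 2 and 5 without each library. Array weights gave 1 call for confinement in WKO cells and 1 on average, where 0 were reported, and leaving out each library gave 0 to 1 in both. For the 19 other complement genes tested, DESeq2 gave 1, 3 and 1 calls where 0 were reported (genotype unconfined, genotype confined, confinement in WT). Of all genes it called 1.44%, 6.22% and 2.67% there. For averaged genotype it gave 6 calls in place of 3, and called 9.21% of all genes. Array weights gave 1, 8, 1 and 2 calls in the 4 comparisons within a condition or genotype, 7 for averaged genotype and 3 for averaged confinement. Of all genes, array weights called 1.33%, 15.6%, 3.36% and 13.9% in these 4 comparisons. The shares were 14.5% for averaged genotype and 17.8% for averaged confinement. Only the compared libraries gave 1 call for genotype unconfined (1.52% of all genes) and 1 for confinement in WT (3.65%). No trend gave 0 in place of 1 for averaged confinement (3.4% of all genes). Leaving out each library gave 0 to 1, 0 to 2, 0 to 1 and 0 to 2 in those 4 comparisons, 1 to 6 for averaged genotype and 0 to 2 for averaged confinement. The cause of these shifts was not tested.

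The labels do not say what the replicate numbers mean, and they were not used as pairs in the main fit. In 7 same-numbered pairs, deviations from the group means had r between -0.11 and 0.08, and 0 pairs were over 0.1. In a group of 2 libraries the deviations mirror each other. The pairs are therefore not independent, and these values cannot exclude pairing. With the replicate block, which leaves 2 residual degrees of freedom, the other complement genes had 1 call for genotype unconfined, 1 for genotype confined and 0 for averaged confinement, and the members had 4 calls both in confined cells and on average.

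Upper-quartile scaling moved the median of all genes by -0.10 for confinement in WKO cells; TMM moved no comparison by more than 0.015. Depth was lowest for C3, with 388 reads in its lowest library. With 2 or 3 libraries a group, the spread between libraries limits all comparisons.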
